A study of Mus musculus with 6 samples.

Results

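The genes described here are 9 that carry fatty acids from the blood into the vessel wall and handle them there: Lpl, Gpihbp1, Angptl4, Cd36, Fabp4, Fabp5, Pparg, Plin2 and Cpt1a. They were taken by gene symbol, and all 9 were found among the 23203 named genes of the count table and passed the filter on low counts. The samples are 6 libraries of RNA from splenic endothelial cells, 1 per mouse, each from an Apoe-knockout mouse. Mice of this genotype lack apolipoprotein E, clear lipoprotein remnants poorly and develop high blood cholesterol. All 6 were fed a high cholesterol diet for 8 weeks and over the same time received an antisense oligonucleotide (ASO), a synthetic strand that binds an RNA by base pairing and leads to its loss. In mice 1601, 1602 and 1608 it was a control ASO, and in mice 1603, 1604 and 1607 it targeted Mlkl, the pseudokinase that carries out the last step of necroptosis. Diet and Apoe deletion were thus shared by both groups. The labels record the second group as an Mlkl knockdown. The sources used here do not give age, sex, the sequence and dose of the ASOs or the way the cells were isolated.

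Triglyceride in circulating lipoproteins is cleaved on the inner face of capillaries by lipoprotein lipase, the product of Lpl. Gpihbp1 encodes the endothelial protein that carries the lipase across the capillary wall and holds it there, and Angptl4 encodes a secreted protein that inactivates it. Free fatty acids enter the endothelial cell with the help of the scavenger receptor Cd36 and are carried in the cytosol by the fatty acid binding proteins Fabp4 and Fabp5. They can activate the nuclear receptor Pparg, which switches on genes of lipid handling that include Fabp4, Cd36, Angptl4 and Plin2. Plin2 encodes a coat protein of lipid droplets, and Cpt1a encodes the enzyme that admits long fatty acids to mitochondria for oxidation. Capillaries of heart, muscle and fat are best known for this set, and macrophages, adipocytes and platelets also express some of its members.

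The libraries held 59988000 to 87776000 estimated counts. Levels are given as CPM, counts scaled to a library of 1000000 after adjustment of the library totals by TMM. Mlkl, the target of the ASO, measured 30.1, 31.5 and 38.7 CPM in control mice 1601, 1602 and 1608 and 7.52, 5.80 and 3.73 CPM in mice 1603, 1604 and 1607, so that it was lower in every mouse given the MLKL ASO (log2 fold change -2.56, edgeR adjusted p = 0.0666, DESeq2 adjusted p = 1.2e-15). All 13 pan-endothelial markers were present in each library. In the control group mouse 1601 had the lowest sum of these markers, 2982 CPM, and mouse 1608 the highest, 5723 CPM, and the MLKL ASO group lay between at 3809 to 4177 CPM. Markers of sinusoidal endothelium, 6 of 7 with a row in the table, summed to 1133 to 1917 CPM over the 6 libraries, led by the scavenger receptor Stab2 at 511 to 1020 CPM, while Lyve1 of the same list was at 0.401 to 5.25 CPM. The 7 markers of capillary endothelium summed to 339 to 600 CPM, led by the water channel Aqp1 at 190 to 354 CPM, while Car4 and Aqp7 of that list stayed under 1 CPM in each library. RNA of blood cells was present throughout: erythroid markers summed to 47202 to 126860 CPM in control and 70260 to 159020 CPM in MLKL ASO mice, and 16 macrophage markers to 785 to 1794 CPM and 939 to 1328 CPM. Summed levels of T and NK cell markers (305 to 739 CPM against 214 to 242 CPM), dendritic cell markers (416 to 644 CPM against 297 to 362 CPM) and immediate early genes (8782 to 10668 CPM against 4609 to 6193 CPM) were lower in each MLKL ASO mouse than in each control mouse. In such bulk samples, fewer cells of a type and less RNA per cell cannot be told apart.

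Fabp4 and Fabp5 are sister genes, and reads of related genes can be confused when counts are estimated by similarity. In the GENCODE M21 annotation (build GRCm38) Fabp5 lies on the plus strand of chromosome 3 at chr3:10012548-10016607, and Fabp4 on the minus strand at chr3:10204088-10208576. Their coding sequences were 61.4% identical over 399 aligned bases. The longest run that they share is 12 bases, in exon 2 of both genes. It is set in capitals below within its surroundings, bases 45 to 176 of the Fabp4 coding sequence and 51 to 182 of that of Fabp5, counted from the start codon, to show how far the transcripts differ.
Fabp4: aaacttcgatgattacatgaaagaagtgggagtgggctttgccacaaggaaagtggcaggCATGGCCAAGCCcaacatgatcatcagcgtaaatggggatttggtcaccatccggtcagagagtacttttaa
Fabp5: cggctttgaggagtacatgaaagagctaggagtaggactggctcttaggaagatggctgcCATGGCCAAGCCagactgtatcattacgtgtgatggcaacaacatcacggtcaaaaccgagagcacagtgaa
Cut into windows of 31 bases, the coding transcripts of Fabp4, Cd36, Gpihbp1, Pparg and Cpt1a had 0% of their windows in transcripts of any other gene of that annotation. The share was 33.1% for Fabp5, with matches in 5 other genes, and 7.56% for Plin2, with matches in 1. It was 2.26% for Lpl (242 other genes) and 0.398% for Angptl4 (1460 other genes). By this share the counts of Fabp5 are the least certain of the 9, as part of its reads could belong to a copy. The annotation behind the deposited counts is not given, and the shares in it may differ.

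Fabp4 differed most between the groups. It was 2.02-fold higher in mice given the MLKL ASO, while its sister Fabp5 was 1.36-fold lower. Pparg had the next largest difference, 1.55-fold higher with overlap between the groups. Levels of Cd36, Lpl, Gpihbp1, Angptl4, Plin2 and Cpt1a overlapped between the groups, and their differences were smaller than the spread within the control group. By edgeR's quasi-likelihood test, with p-values adjusted over all 19741 genes tested and a threshold of 0.05, 0 of the 9 passed, where 0.0101% of all genes did. Without adjustment 3 of the 9 had a p under 0.05, Fabp4, Fabp5 and Pparg, against 12.0% of all genes. DESeq2 called 1 of the 9, Fabp4, against 2.61% of all genes, and limma-voom with sample weights called 0 of the 9, against 0.122%. In the authors' deposited table Fabp4 was also the only one of the 9 past the threshold, against 1.81% of its rows. The median log2 fold change of the 9 was -0.10, beside -0.02 over all genes tested.

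**Figure D1:**
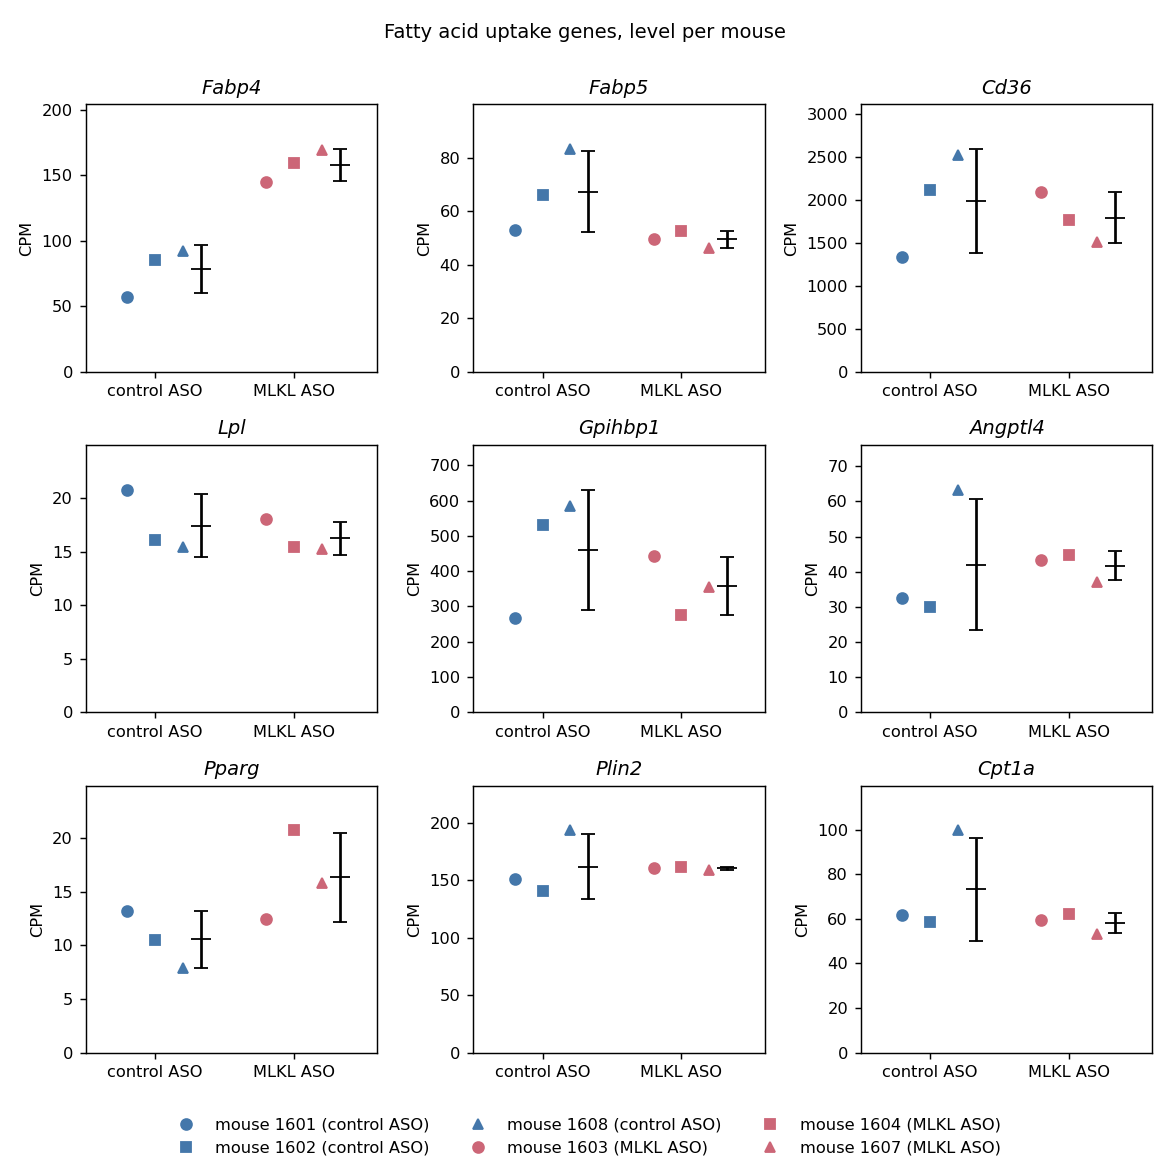
Level of each of the 9 genes in CPM (vertical axes, from 0) in control ASO mice (blue) and MLKL ASO mice (red), with the mean and SD of each group of 3 in black; symbols mark single mice. Fabp4 lies at 57.2 to 91.9 CPM in control and 145 to 169 CPM in MLKL ASO mice, without overlap, whereas the groups overlap for all others but Fabp5.

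Lpl was low and even across the mice. It measured 20.8, 16.1 and 15.4 CPM in control mice 1601, 1602 and 1608 and 18.1, 15.5 and 15.3 CPM in mice 1603, 1604 and 1607. The highest library exceeded the lowest 1.36-fold, the smallest such range of the 9 genes, and the groups overlapped. The log2 fold change was -0.10 with a 95% interval of -0.50 to 0.30 (edgeR adjusted p = 0.858), and it turned to 0.05 without mouse 1601. Macrophages make lipoprotein lipase, and mouse 1601, highest for Lpl, was also highest for macrophage markers (1794 CPM) and lowest for endothelial ones. Their part in the level of Lpl was not tested.

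Gpihbp1, the anchor of the lipase, was abundant and varied between mice. It measured 266, 531 and 585 CPM in control mice 1601, 1602 and 1608 and 442, 277 and 356 CPM in mice 1603, 1604 and 1607. The MLKL ASO mice thus all lay within the control range, whose upper end was 2.20-fold above its lower end. Control mice averaged 461 ± 171 CPM (SD, n = 3), MLKL ASO mice 358 ± 82.8 CPM (SD, n = 3), and the log2 fold change was -0.36 with an interval of -1.07 to 0.35 (edgeR adjusted p = 0.680). Leaving out mouse 1601, 1603, 1602, 1604 or 1608 moved it to -0.63 (edgeR adjusted p = 0.264), -0.54, -0.24, -0.20 and -0.15. The ratio of the anchor to the lipase, 12.8 to 38.0 over the control mice and 17.9 to 24.5 over the MLKL ASO mice, overlapped as well.

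Angptl4, the inhibitor of the lipase, was set apart by its CPM in mouse 1608. Its level was 32.5, 30.0 and 63.4 CPM in control mice 1601, 1602 and 1608 against 43.2, 44.7 and 36.9 CPM in mice 1603, 1604 and 1607. Each MLKL ASO mouse was higher than 2 of the control mice and lower than the third. The means were 42.0 ± 18.6 CPM (SD, n = 3) and 41.6 ± 4.13 CPM (SD, n = 3), and the log2 fold change was -0.01 (interval -0.68 to 0.66, edgeR adjusted p = 0.994). It was 0.41 without mouse 1608 (edgeR adjusted p = 0.252). Immediate early genes, which mark recent stimulation or handling of cells, summed to their highest level, 10668 CPM, in the same mouse. Pan-endothelial markers were also highest there, at 5723 CPM. Divided by the geometric mean of the 13 pan-endothelial markers, Angptl4 was 0.216, 0.141 and 0.219 in control mice 1601, 1602 and 1608. It was 0.210, 0.232 and 0.191 in mice 1603, 1604 and 1607. The part of these genes and markers in the level of Angptl4 was not tested.

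Cd36, the fatty acid receptor, had the highest CPM of the set. It measured 1330, 2116 and 2520 CPM in control mice 1601, 1602 and 1608 and 2098, 1771 and 1514 CPM in mice 1603, 1604 and 1607. The control mice held both the lowest and the highest value, and the log2 fold change was -0.15 (interval -0.71 to 0.41, edgeR adjusted p = 0.848). It turned to 0.06 without mouse 1608 and was -0.36 without mouse 1601. In control mice the level of Cd36 rose with that of the endothelial markers. MLKL ASO mice 1604 and 1607 had like marker levels and differed in Cd36. The part of endothelial cell content in the level of Cd36 was not tested. The geometric mean of the 13 pan-endothelial markers was 151, 213 and 290 CPM in mice 1601, 1602 and 1608 and 206, 193 and 193 CPM in mice 1603, 1604 and 1607. Set against that mean, Cd36 came to 8.84, 9.92 and 8.69 in control mice and to 10.2, 9.18 and 7.84 in MLKL ASO mice. The spread of these ratios was thus narrower than that of the CPM values, and the group means, 9.15 ± 0.673 (SD, n = 3) and 9.07 ± 1.19 (SD, n = 3), lay within it. Gpihbp1 divided in this way ran from 1.44 to 2.49 and also overlapped between the groups.

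Fabp4, the fatty acid chaperone of capillary endothelium and adipocytes, measured 57.2, 85.6 and 91.9 CPM in control mice 1601, 1602 and 1608 and 145, 160 and 169 CPM in mice 1603, 1604 and 1607. The lowest MLKL ASO mouse was well above the highest control mouse. Groups that did not overlap, with the MLKL ASO mice higher, were found in 1 of the 9 genes and in 8.73% of all genes tested. Control mice averaged 78.2 ± 18.5 CPM (SD, n = 3) and MLKL ASO mice 158 ± 12.3 CPM (SD, n = 3). This amounts to 1.01 on the log2 scale (standard error 0.19, interval 0.57 to 1.45). Its edgeR adjusted p was 0.213 (unadjusted p = 0.000872, the 80th smallest of all genes), and that of limma-voom with sample weights was 0.0649. DESeq2 called it (adjusted p = 0.000441). The authors' deposited table gives 0.99 on the log2 scale with an adjusted p of 0.00234. An exact two-sided permutation test came to p = 0.1, and groups of 3 cannot go lower.

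The difference in Fabp4 was as large relative to endothelial markers as in CPM. Divided by the endothelial geometric mean, Fabp4 came to 0.380, 0.401 and 0.317 in control mice 1601, 1602 and 1608 and to 0.704, 0.827 and 0.876 in mice 1603, 1604 and 1607, a 2.19-fold difference in the means. With each mouse left out in turn its log2 fold change stayed between 0.83 and 1.14, and DESeq2, run in that way as well, kept it past the threshold in 6 of 6 runs (adjusted p at most 0.0287). Adipocytes are the other cell type richest in Fabp4, and their markers were under 1 CPM but for Car3 in mouse 1603. Adipoq, Retn and Plin1, which encode adiponectin, resistin and a droplet coat protein, reached at most 0.437, 0.616 and 0.0789 CPM. These maxima fell in MLKL ASO mice 1603, 1603 and 1607. Means were 0.0365, 0.0406 and 0.0469 CPM in control and 0.239, 0.238 and 0.0622 CPM in MLKL ASO mice, too low to be tested. Summed over the 4 of 8 adipocyte markers with a row in the table, the level was 0.0721 to 0.292 CPM in control and 0.248 to 5.98 CPM in MLKL ASO mice. Mouse 1603 held the highest of these sums, most of it from the carbonic anhydrase gene Car3 (4.89 CPM). In other marker lists most members were above 0, as Fabp4 was. These were all 12 megakaryocyte and platelet markers (median log2 fold change 1.01), all 12 proliferation genes (median 0.86) and all 13 erythroid markers (median 0.51). The same held for 9 of 10 neutrophil markers (median 0.40) and 5 of 7 capillary markers (median 0.34). The sums of each of these lists overlapped between the groups, as those of proliferation genes did at 508 to 997 CPM in control and 968 to 1363 CPM in MLKL ASO mice. The sums of T and NK cell, dendritic cell and immediate early genes, given above, were apart and lower. The part of these cells and states in the Fabp4 difference was not tested.

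**Figure D2:**
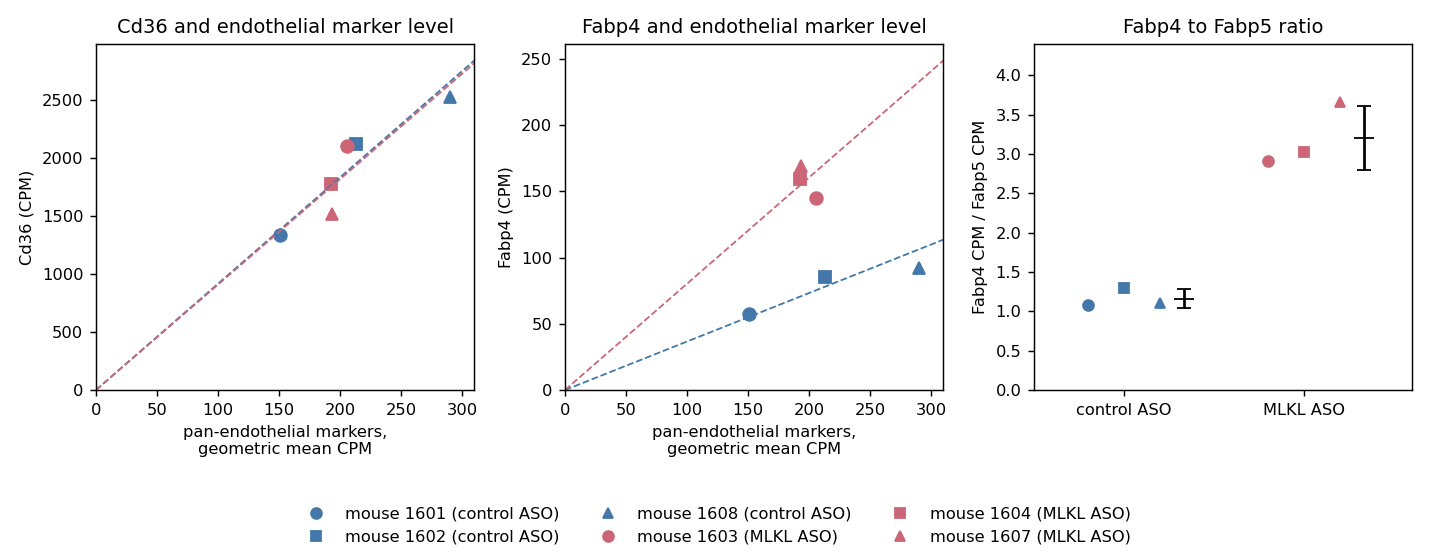
Cd36 (left) and Fabp4 (middle) in CPM against the geometric mean of 13 pan-endothelial markers in CPM, and the ratio of Fabp4 to Fabp5 CPM (right, with mean and SD of 3 mice), each symbol 1 mouse; dashed lines have the mean ratio of each group as slope. For Cd36 the lines of both groups nearly coincide (9.15 and 9.07), and for Fabp4 they part (0.366 in control and 0.802 in MLKL ASO mice).

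Fabp5, which is made by endothelium but also by macrophages and lymphocytes, was lower in the MLKL ASO mice. It measured 52.8, 66.0 and 83.3 CPM in control mice 1601, 1602 and 1608 and 49.7, 52.7 and 46.2 CPM in mice 1603, 1604 and 1607. The groups did not overlap, but mouse 1601 of the control group exceeded mouse 1604 only narrowly. Of the 9 genes 1 had groups apart with the MLKL ASO mice lower, beside 10.0% of all genes. The means were 67.4 ± 15.3 CPM (SD, n = 3) and 49.5 ± 3.25 CPM (SD, n = 3), and the log2 fold change was -0.44 (interval -0.86 to -0.03, edgeR adjusted p = 0.395). It was -0.26 without mouse 1608, which held the highest level. Divided by the endothelial geometric mean, Fabp5 came to 0.351, 0.309 and 0.287 in control mice 1601, 1602 and 1608. In mice 1603, 1604 and 1607 it came to 0.242, 0.273 and 0.239. On that scale the groups were also apart, and mouse 1608 was the lowest of the control mice. The marker sums of T and NK cells, of dendritic cells and of immediate early genes, given above, were lower in the MLKL ASO mice too. All 8 B cell markers were below 0 (median log2 fold change -0.77). Their sums, 1038 to 2268 CPM in control and 726 to 1187 CPM in MLKL ASO mice, overlapped. Of the 16 macrophage markers, 6 were above 0 and 10 below. The part of these cells and states in the Fabp5 difference was not tested.

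The ratio of Fabp4 to Fabp5 within a library does not depend on how libraries are scaled. It was 1.08, 1.30 and 1.10 in control mice 1601, 1602 and 1608 and 2.91, 3.03 and 3.67 in mice 1603, 1604 and 1607. The group means, 1.16 ± 0.118 (SD, n = 3) and 3.20 ± 0.406 (SD, n = 3), differed 2.76-fold. This ratio was formed from the 2 genes already known to be apart in opposite directions, so its separation is a description. Its exact two-sided permutation p of 0.1 follows from that choice and is no separate test.

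Pparg, the receptor upstream of several genes of the set, measured 13.2, 10.5 and 7.91 CPM in control mice 1601, 1602 and 1608 and 12.5, 20.7 and 15.8 CPM in mice 1603, 1604 and 1607. Mice 1604 and 1607 exceeded each control mouse, and mouse 1603 lay below control mouse 1601. The log2 fold change was 0.63 with an interval of 0.02 to 1.24 (edgeR adjusted p = 0.405, DESeq2 adjusted p = 0.247), and the exact two-sided permutation p was 0.2 with 3 mice per group. It was 0.42 without mouse 1604 and 0.83 without mouse 1601. The highest and the lowest Pparg fell in mice 1604 and 1608. The same mice were highest and lowest for megakaryocyte and platelet markers (3116 and 121 CPM) and for erythroid markers (159020 and 47202 CPM). So they were for neutrophil markers (2043 and 256 CPM), capillary endothelial markers (600 and 339 CPM) and proliferation genes (1363 and 508 CPM). The part of those cells and states was not tested. Of the target genes of Pparg named above, Fabp4 was the one with groups apart, while Cd36, Angptl4 and Plin2 overlapped. Whether Fabp4 and the other targets differ in their response was not tested.

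Plin2, the droplet coat protein, was nearly the same in both groups. It stood at 151, 141 and 194 CPM in control mice 1601, 1602 and 1608, and mice 1603, 1604 and 1607, at 161, 161 and 159 CPM, were all within that range. The log2 fold change was -0.01 with an interval of -0.34 to 0.31 (edgeR adjusted p = 0.983), the narrowest interval of the set. Cpt1a, the entry step of mitochondrial oxidation, measured 61.7, 58.4 and 99.8 CPM in mice 1601, 1602 and 1608 and 59.4, 62.0 and 53.1 CPM in mice 1603, 1604 and 1607. Mouse 1608 alone was high in CPM, and the other 5 lay close together. Divided by the endothelial geometric mean, Cpt1a came to 0.410, 0.274 and 0.344 in control mice 1601, 1602 and 1608. In mice 1603, 1604 and 1607 it came to 0.289, 0.322 and 0.275. The log2 fold change of Cpt1a was -0.33 (interval -0.84 to 0.17, edgeR adjusted p = 0.579) and came to -0.05 without mouse 1608 (edgeR adjusted p = 0.891).

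**Figure D3:**
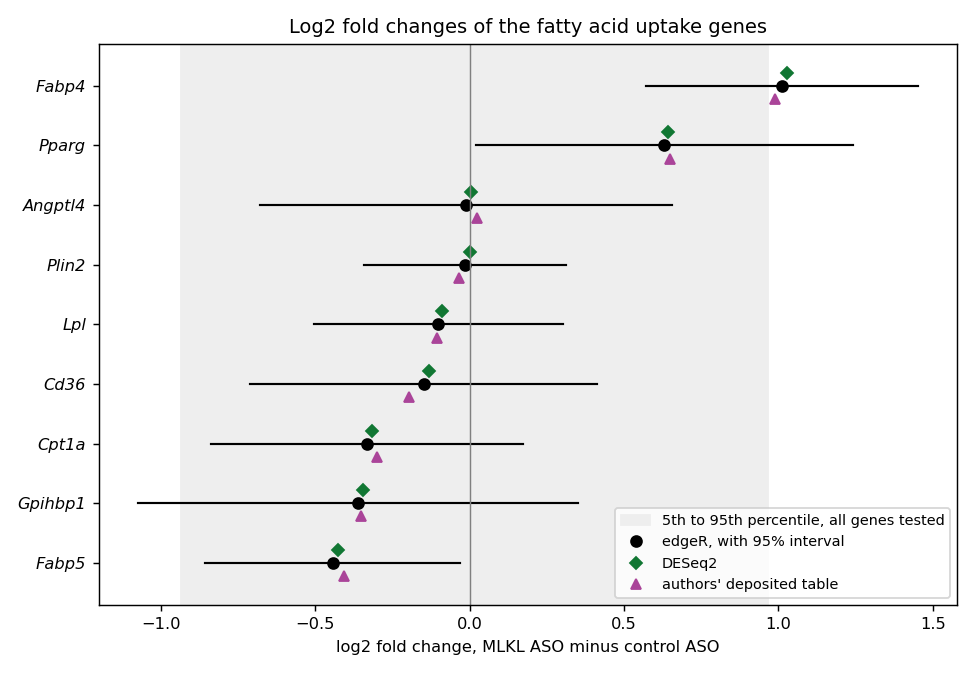
Log2 fold change, MLKL ASO minus control ASO, of the 9 genes by edgeR (black, with 95% interval), DESeq2 (green) and in the authors' deposited table (purple); the grey band spans the 5th to 95th percentile of all genes tested, -0.93 to 0.97. Fabp4, at 1.01 by edgeR, lies beyond the band, and the intervals of 6 of the 9 genes include 0.

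Levels of different genes were compared after division by transcript length, taken from GENCODE M21 for the principal transcript of each gene. In control mice the order began with Cd36 at 585 ± 178 CPM per kilobase (SD, n = 3) and Gpihbp1 at 558 ± 207, which did not differ beyond their spread. Fabp4 (87.3 ± 20.6), Plin2 (85.8 ± 14.8) and Fabp5 (68.2 ± 15.5) followed, again without a difference beyond their spread. Cpt1a (17.0 ± 5.33) and Angptl4 (12.7 ± 5.62) came next, then Pparg (5.97 ± 1.51) and Lpl (4.24 ± 0.714). The receptor and the lipase anchor were thus far above the lipase itself in these cells. In MLKL ASO mice Fabp4 stood at 176 ± 13.8 CPM per kilobase, above Plin2 (85.0 ± 0.549) and Fabp5 (50.2 ± 3.30) in each mouse, and the order of the others was the same. Which transcripts the cells used is not known, so these levels hold for the transcript assumed.

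The likeness of the profiles of the 9 genes over the 6 mice was measured as the root mean square difference of log2 CPM, each gene being centred on its own mean. The smallest differences were those of Fabp5 and Cpt1a (0.15), Plin2 and Cpt1a (0.19) and Angptl4 and Cpt1a (0.21), all high in mouse 1608. Cd36 and Gpihbp1, low in mouse 1601 and high in mouse 1608, differed by 0.22. Fabp4 was closest to Pparg, at 0.50, and far from Fabp5, at 0.74. A perfectly even profile would differ from Fabp4 by 0.57, from Pparg by 0.44, from Plin2 by 0.14 and from Cpt1a by 0.29. The values of Fabp4 with Pparg and of Plin2 with Cpt1a each lay between those of the genes paired. Each pair was thus closer than an even profile is to its more variable gene, but not to its less variable one. The measure counts the size of the swings as well as their direction. Among 11217 other genes with a mean of at least 5 CPM, the profiles most like that of Fabp4 were those of Clca3a1, of the chloride channel regulator family (0.15), and Map3k20, a stress kinase (0.16). Clca3a1 averaged 326 ± 77.1 CPM in control mice against 627 ± 102 CPM with the MLKL ASO, and Map3k20 24.6 ± 2.86 against 44.6 ± 1.57 CPM (SD, n = 3 each). Both were picked for their likeness to Fabp4, whose groups lay apart, so their own difference follows from that choice and is no separate test. For Cd36 the closest were Rab34 (0.056) and 2510009E07Rik (0.057), for Gpihbp1 Mark4 (0.11) and Nectin3 (0.11), for Lpl Fam149b (0.033) and Zbp1 (0.035), and for Pparg Gm11427 (0.10) and Ankrd28 (0.13). Fabp5 was matched by Trim68 (0.039) and Clec2d (0.046), Angptl4 by Edem3 (0.080) and Gvin2 (0.092), Plin2 by Supt6 (0.019) and Elmo1 (0.028), and Cpt1a by Men1 (0.050) and Slc39a13 (0.051). These matches rest on 6 mice and are a description only.

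The other genes of fatty acid handling, 120 in 5 lists, held 111 that could be tested. By edgeR 0 of them passed (0.0101% of all genes did), and without adjustment 5 were higher and 10 lower with a p under 0.05, a share near the 12.0% of all genes. DESeq2 called 2, Lipg as higher and Slc27a1 as lower, where it called 2.61% of all genes, and the authors' deposited table called 1, Lipg, against 1.81% of its rows. Groups did not overlap in 9 of the 111 with the MLKL ASO mice higher and in 12 with them lower. Over all genes tested these shares were 8.73% and 10.0%. The median log2 fold change of the 111 was -0.11, beside -0.02 over all genes tested.

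Genes of fatty acid entry and activation had a median log2 fold change of -0.14, with 7 of 21 tested members above 0 and 14 below. That median was 0.05 without mouse 1608. Slc27a1, a transporter that couples uptake to activation, measured 32.0, 41.1 and 62.5 CPM in control mice 1601, 1602 and 1608 and 26.3, 23.4 and 15.6 CPM in mice 1603, 1604 and 1607. Its groups did not overlap, and the difference was 2.08-fold (log2 fold change -1.05, edgeR adjusted p = 0.324, DESeq2 adjusted p = 0.039). The DESeq2 call was lost in 5 of 6 runs that left out a mouse and held only without mouse 1601. Acsl3, an acyl-CoA synthetase of lipid droplets, measured 33.3 ± 6.49 and 20.9 ± 4.51 CPM (SD, n = 3 each) and Acsl5, a synthetase of mitochondria and the endoplasmic reticulum, 190 ± 13.0 and 229 ± 11.8 CPM. Meox2 and Tcf15, the transcription factors that direct fatty acid transport in heart endothelium, were at 0.229 and 0.168 CPM in control mice.

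Genes of lipoprotein lipolysis and uptake had 5 of 21 tested members above 0 and a median of -0.15. Lipg, the endothelial lipase, which cleaves mainly phospholipids of HDL, measured 0.705, 1.46 and 1.17 CPM in mice 1601, 1602 and 1608 and 2.28, 5.85 and 3.64 CPM in mice 1603, 1604 and 1607. It was 3.53-fold higher with the MLKL ASO, without overlap (log2 fold change 1.82, edgeR adjusted p = 0.288, DESeq2 adjusted p = 0.00464, adjusted p = 0.00411 in the authors' deposited table). DESeq2 no longer called it without mouse 1604 (adjusted p = 0.143) or mouse 1607 (adjusted p = 0.0557). Vldlr, the receptor for triglyceride-rich lipoproteins, measured 0.883 ± 0.662 and 2.50 ± 0.861 CPM, and Pcsk5, a proprotein convertase, 45.9 ± 15.1 and 29.7 ± 3.61 CPM (SD, n = 3 each). Without mouse 1608 their log2 fold changes were 0.99 and -0.34, where all mice gave 1.495 and -0.63. Averages of at least 1 CPM over all mice were asked of named genes, and Vldlr, like Plin4 and Cpt1b further on, reached that only through the MLKL ASO group, so that its difference is a description. Lmf1, the factor that folds lipoprotein lipase, measured 18.0 ± 0.946 and 16.3 ± 1.73 CPM (SD, n = 3 each).

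**Figure D4:**
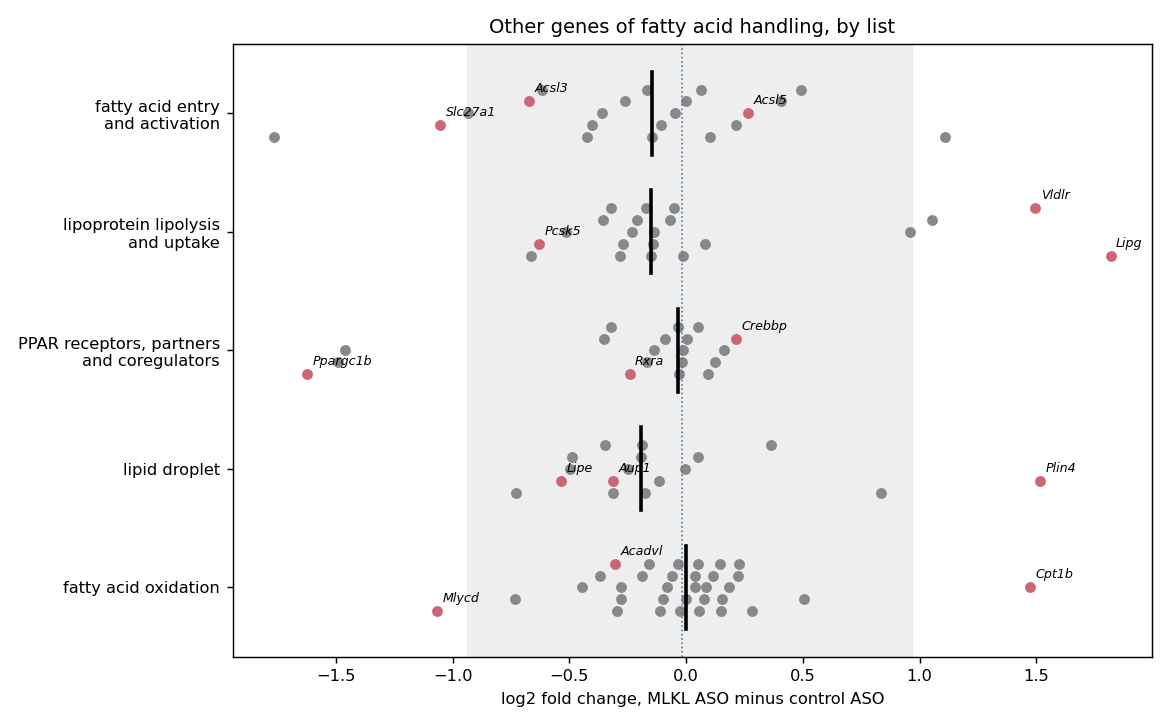
Log2 fold change, MLKL ASO minus control ASO, of the tested genes of 5 lists (1 point per gene, red and named where the text gives them by rule, black bars for list medians); the grey band spans the 5th to 95th percentile of all genes tested and the dotted line is their median. List medians lie between -0.19 and 0.00, and Lipg is the highest point at 1.82.

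PPAR receptors, partners and coregulators had a median of -0.04, and 6 of the 19 were above 0. The median turned to 0.04 with libraries scaled to the endothelial markers and to 0.01 without mouse 1603 or mouse 1608. Ppargc1b, a coactivator of mitochondrial genes, measured 4.29, 2.02 and 2.32 CPM in control mice 1601, 1602 and 1608. In mice 1603, 1604 and 1607 it measured 0.437, 1.12 and 1.24 CPM, 3.09-fold lower and without overlap. It averaged 0.931 CPM in MLKL ASO mice and reached the 1 CPM asked of named genes only through the control group, so that its difference is a description. Rxra, the usual partner of Pparg, measured 9.48 ± 1.34 and 8.02 ± 0.387 CPM and the acetyltransferase gene Crebbp 146 ± 20.8 and 170 ± 23.9 CPM (SD, n = 3 each). On the log2 scale the difference of Rxra, -0.24, was -0.13 without mouse 1608, and that of Crebbp, 0.21, was 0.11 without mouse 1601 and 0.10 without mouse 1607. The sister receptors Ppara and Ppard were at 0.599 and 2.10 CPM in control and 0.216 and 1.68 CPM in MLKL ASO mice.

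Lipid droplet genes had 4 of 17 tested members above 0 and a median of -0.19. Plin4, a coat protein related to Plin2, measured 0.739 ± 0.439 and 2.11 ± 0.706 CPM, the hormone-sensitive lipase gene Lipe 14.6 ± 3.70 and 10.1 ± 0.912 CPM, and Aup1, a droplet protein of the ubiquitin pathway, 185 ± 10.7 and 149 ± 8.65 CPM (SD, n = 3 each). The groups did not overlap for any of these 3, which were picked for the smallest p of their list. Of the 17 tested, 2 had groups apart with the MLKL ASO mice higher and 4 lower, beside 8.73% and 10.0% of all genes. The adjusted p-values of Lipe and Aup1 in edgeR were 0.399 and 0.360. Without mouse 1601 the log2 fold change of Lipe went from -0.54 to -0.31.

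Genes of fatty acid oxidation had 17 of 33 above 0 and 16 below, with a median of 0.00. Cpt1b, the muscle isoform of Cpt1a, measured 0.535 ± 0.126 and 1.49 ± 0.628 CPM, and Mlycd, which degrades the natural inhibitor of Cpt1a, 7.79 ± 3.92 and 3.72 ± 0.180 CPM (SD, n = 3 each). Acadvl, the first enzyme of the oxidation of long chains, measured 156 ± 13.7 and 127 ± 9.25 CPM, with adjusted p-values in edgeR of 0.366 for Mlycd and 0.388 for Acadvl. Without mouse 1602 the log2 fold change of Mlycd went from -1.07 to -0.64. Pdk4, a widely used PPAR target, measured 4.75, 7.37 and 21.1 CPM in mice 1601, 1602 and 1608 and 10.0, 10.7 and 13.7 CPM in mice 1603, 1604 and 1607, so that the control mice held both the lowest and the highest value.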

How the data were processed

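RNA of splenic endothelial cells of 6 mice was sequenced after extraction with a Direct-zol kit and directional mRNA library preparation, per the labels' protocols. The deposited table holds estimated counts per gene symbol, and fastp 0.20.1, Salmon 1.3.0 and DESeq2 were used, per the submitters' processing notes; the sources used here do not give the genome build or annotation. The authors' deposited DESeq2 table gives, per the file headers, a mean normalised signal, a log2 fold change with its standard error, a Wald score and p-values, plain and adjusted. Its log2 fold changes correlated with those computed here at r = 0.977 across genes, which are not independent, so positive values were read as higher with the MLKL ASO.

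Estimated counts were rounded, 4 rows with a number for a name (0.00146% of the counts) were left out, and edgeR 4.0.16 (R 4.3.3) was run over all genes with its default filter, TMM and the quasi-likelihood test, two-sided, Benjamini-Hochberg adjusted. Standard errors are the log2 fold change over the root of F. Alternatives were other scalings and filters, DESeq2 1.42.0, limma-voom 3.58.1 and leaving out each mouse; DESeq2 without each mouse was added after seeing the data. The fits were tested on simulated data. Profile likeness used log2 CPM with a prior count of 2. Genes named outside the 9 are Mlkl, the 3 of each list with the smallest p among those averaging 1 CPM or more, and the 2 profiles nearest each of the 9; Stab2, Lyve1, Aqp1, Car4, Aqp7, the adipocyte markers, Meox2, Tcf15, Lmf1, Ppara, Ppard and Pdk4 were chosen after their values were seen. The 9 genes and the lists were chosen with earlier results of these data known. The labels do not pair mice, name a batch or state how separately the mice were handled, so p-values measure the spread between these mice.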

Additional observations from a re-analysis of the deposited data

How the results depend on the processing

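The higher level of Fabp4 kept its direction under each alternative run, with a log2 fold change of 0.97 to 1.13 over the scalings, filters and tools, but it passed the threshold only in DESeq2 (adjusted p = 0.000441, and in 6 of 6 DESeq2 runs without a mouse). Fabp5 stayed below 0 (-0.59 to -0.26 without a mouse) and passed only in DESeq2 without mouse 1601 (adjusted p = 0.0272). The number of the 9 genes past the threshold was 0 in edgeR, also with each mouse left out, 0 in limma-voom, 1 in DESeq2 and 1 to 2 in DESeq2 without a mouse. For the pathway lists it was 0 in edgeR, also with each mouse left out, 2 in DESeq2 and 0 to 7 in DESeq2 without a mouse. Over all genes 2 passed, 4 with the upper quartile, 9 with library totals alone, 6 with libraries scaled to the endothelial markers, 515 in DESeq2, 24 in limma-voom, 0 to 19 without a mouse (19 without mouse 1608, 4 without mouse 1601 and 0 without each of the others) and 1057, 509, 1255, 248, 234 and 234 in DESeq2 without mouse 1601, 1602, 1608, 1603, 1604 and 1607. The cause of these shifts was not tested.

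Genes with differences near 0 changed sign. The log2 fold change of Angptl4, -0.01, was 0.0047 with RLE factors, 0.014 with the upper quartile, 0.0011 with library totals, 0.14 with endothelial scaling, 0.000797 with at least 1 CPM in 3 samples, 0.0047 in DESeq2 and 0.32 in limma-voom, and ran from -0.20 to 0.41 without a mouse (DESeq2 -0.19 to 0.41, with 0.082 without mouse 1607). That of Plin2, -0.01, was 0.000907 with RLE factors, 0.000935 in DESeq2, 0.012 with the upper quartile, 0.0088 with library totals, 0.065 with endothelial scaling and 0.10 in limma-voom, and ran from -0.10 to 0.13 without a mouse (DESeq2 -0.09 to 0.14, with 0.0044 without mouse 1607). Cd36, -0.15, ran from -0.36 without mouse 1601 to 0.0588 without mouse 1608 (DESeq2 0.0626), and Lpl was 0.0506 without mouse 1601 (DESeq2 0.0665). No paired analysis was possible because no mouse number occurs in both groups. The lowest count among the 9 genes was 548, of Pparg in mouse 1608.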

Other observations

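Outside the named set, and chosen after its values were seen, Rxrg, a partner receptor of PPARs, lay apart between the groups at a low level without passing in edgeR. It averaged 1.17 CPM in control mice against 0.417 CPM with the MLKL ASO (edgeR adjusted p = 0.359).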
